A study of Mus musculus with 30 samples.

Results

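The 38 genes followed here encode proteins that build ribosomes. They were taken by symbol from a fixed list and matched to the mouse Ensembl identifiers of the deposited gene table, which holds 78334 identifiers. All 38 were found, and all 38 had enough reads to be tested. RNA came from 30 libraries in 9 groups of cultured cells labelled as aortic smooth muscle cells of wild type mice, the muscle cells of the artery wall. Per the treatment labels, the long noncoding RNA CASC15 was knocked down or overexpressed from a plasmid. The protocols name both GapmeRs, antisense oligonucleotides through which RNase H cuts a paired RNA, and siRNA, as well as mouse and rat cells. Some knockdown and overexpression titles carry other CASC numbers, running on from library to library. The libraries were taken as mouse cells with CASC15 knockdown by GapmeR or CASC15 overexpression, and these points were not tested.

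The libraries came from sequencing runs 2 and 3, which were analysed separately. Run 2 held an antisense control (n = 2), a total CASC15 knockdown (n = 2), a plasmid control (n = 3) and a total CASC15 overexpression (n = 3), all without a further agent. Run 3 held 5 groups of 4 libraries: a knockdown control without treatment, the same control with angiotensin II, the same control with PDGF-BB, a knockdown of the long CASC15 transcript without treatment, and that knockdown with angiotensin II. Every group was kept in serum-free medium for 48 h and transfected for at least 24 h, so the controls carried an oligonucleotide or a plasmid too. Angiotensin II, a vasoconstrictor peptide, was given at 10 ng/ml and PDGF-BB, a growth factor for smooth muscle, at 10 to 30 ng/ml, each for 24 h. PDGF-BB was not combined with a CASC15 manipulation. Each library is also labelled with 1 of 4 batches (P16, P17, P18 and P19), and libraries of the same replicate number within a run share a batch. What a batch stands for is not given in the sources used here, and nothing states that replicates were separate cultures or animals, so the p-values measure the spread between these libraries.

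Ribosomes are assembled in the nucleolus. RNA polymerase I transcribes a long precursor RNA from the rDNA repeats, small nucleolar ribonucleoproteins (snoRNPs) modify it, and separate sets of assembly factors cleave it and fold it into the small and the large subunit. Growth factors are known to raise ribosome production in cells that enter the cell cycle, and MYC is known to bind the E-box CACGTG in many promoters of this pathway. PDGF-BB is a classic mitogen of cultured smooth muscle cells, where it also lowers contractile genes such as Acta2, the smooth muscle actin.

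The promoters show how far that motif runs through the list. RefSeq promoters on GRCm38.p6, from 250 bases before to 50 bases after the start, were held for 32 of the 38 genes. The letters CACGTG, which read the same on both strands, were in the promoter of 6 of these 32 (18.8%), against 2187 of 27025 symbols in the whole promoter table (8.09%). The stretches around the motif are printed below 5′ to 3′ on the strand of each gene, with the motif in capitals, because they are the only sequence feature of the promoters searched for here.
Mybbp1a, chr11:72441355-72441376, plus strand: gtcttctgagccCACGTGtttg
Nop2, chr6:125131811-125131840, plus strand: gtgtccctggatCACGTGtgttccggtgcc
Pes1, chr11:3963965-3963994, plus strand: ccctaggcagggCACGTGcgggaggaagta
Tsr1, chr11:74898092-74898121, plus strand: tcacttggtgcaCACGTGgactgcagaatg
Utp20, chr10:88826765-88826789, minus strand: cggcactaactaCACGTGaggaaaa
Wdr43, chr17:71616220-71616249, plus strand: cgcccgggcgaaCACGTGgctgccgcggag
Relative to the annotated start, the motif began at -60 in Nop2, before the start, and 2 (Pes1), 17 (Wdr43), 24 (Tsr1), 37 (Utp20) and 40 bases (Mybbp1a) after it in the other five. A match is a description of the letters, and a gene without one may hold the motif outside the window. The 6 genes with the motif had a median log2 fold change of 0.578 under PDGF-BB, and the 26 with a promoter and no motif had 0.566.

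Some properties of the libraries bear on the values below. Libraries held 15771490 to 30362047 expected counts, the estimated reads per gene that RSEM assigns. Levels are given as CPM, the usual depth-scaled counts, after TMM scaling for library composition. Acta2 (96.5 to 441 CPM) and the smooth muscle gene Smtn (42.2 to 103 CPM) were present in every library, but the contractile markers Cnn1 (at 0 in 17 of 30 libraries, at most 0.224 CPM), Tagln (at most 3.45 CPM) and Myh11 (at most 6.67 CPM) were absent or nearly so. Fibroblast Dcn stood at 563 to 2180 CPM and epithelial Cdh1 at 35.1 to 195 CPM. Of 6 endothelial markers Cdh5 reached at most 1 read and Emcn 2, and the others up to 6.14 CPM (Vwf). Of 6 leukocyte and macrophage markers Ptprc reached at most 2 reads and Adgre1 1, and Cd68 up to 15.9 CPM. The mouse CASC15 gene, 2610307P16Rik, was at 716 ± 174 CPM (SD, n = 3) with overexpression against 6.42 ± 2.34 with the plasmid control. It was at 2.87 ± 0.561 CPM in the long knockdown against 5.52 ± 0.53 in its control (log2 fold change -0.95, edgeR adjusted p = 0.000832, n = 4). In the libraries labelled total knockdown it was not lower: 9.01 ± 1.02 CPM against 7.02 ± 0.913 (n = 2), so that label is not borne out by the gene-level count. Libraries of batch P19 stood apart within their groups. Mki67, a marker of dividing cells, was at 31.5 CPM in the P19 library of the untreated long knockdown and at 1.68 to 3.56 in the other three, and 36 of the 38 members were highest in the P19 library among the PDGF-BB libraries.

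PDGF-BB raised nearly the whole list. Against untreated control cells 35 of the 38 genes rose, 1 fell and 2 did not pass the test (edgeR quasi-likelihood test, adjusted p under 0.05 over all genes tested). Of all 15103 genes tested in run 3, 23.6% rose and 20.0% fell in this comparison. The median log2 fold change of the members was 0.567, against -0.0168 for all genes tested. Levels in the PDGF-BB libraries lay above all 4 control libraries for 33 members, a pattern held by 22.7% of all genes. The PDGF-BB group had the highest mean of the 5 groups of run 3 for 37 members. In bulk RNA a change in RNA per cell cannot be told apart from a change in the mix of cells.

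The largest changes were those of snoRNP core proteins, Nop56 and Dkc1. Box C/D snoRNPs guide 2′-O-methylation of the precursor RNA, and all 3 members rose. Nop56, a core protein of that particle, was at 65.8, 62.7, 69.2 and 71.0 CPM in the 4 control libraries and at 143, 139, 140.5 and 182 CPM with PDGF-BB. Every treated library was above every control, and the last treated value is that of batch P19. The group means were 151 ± 20.5 against 67.2 ± 3.68 CPM (SD, n = 4), a log2 fold change of 1.17 (SE 0.0771, edgeR adjusted p = 4.92e-10). Nop58, its partner, rose by a log2 fold change of 0.85, and Fbl, the fibrillarin methyltransferase, by 0.54.

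Box H/ACA snoRNPs guide the conversion of uridine to pseudouridine, and 3 of their 4 members rose. Dkc1, the dyskerin pseudouridine synthase, was at 26.8, 26.8, 26.4 and 27.0 CPM in the controls and at 48.0, 51.0, 53.3 and 71.9 CPM with PDGF-BB. The controls lay within 1 CPM of each other and the treated libraries did not overlap them (56.0 ± 10.8 against 26.7 ± 0.254 CPM, log2 fold change 1.07, SE 0.0994, edgeR adjusted p = 4.73e-08). Nhp2 rose by 0.75 and Nop10 by 0.43 on the log2 scale. Gar1, the remaining core protein, was at 14.8 CPM against 10.1, and its groups overlapped (log2 fold change 0.55, SE 0.255, edgeR adjusted p = 0.0916). Gar1 also had the widest error of the list.

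All 10 small subunit factors rose, with a median log2 fold change of 0.578. Rrp12, needed for export and late maturation of pre-ribosomes, was at 21.1, 21.1, 23.0 and 22.7 CPM in the controls and at 37.6, 37.1, 42.7 and 45.8 CPM with PDGF-BB. These groups did not overlap (log2 fold change 0.89, SE 0.0999, edgeR adjusted p = 5.58e-07). Tsr1, a GTPase-like factor of late small subunit maturation, rose by 0.77, and Heatr1, a component of the early processome, by 0.61. The smallest change in this class was that of Nop14, from 65.3 to 77.2 CPM (log2 fold change 0.24, edgeR adjusted p = 0.0105), with overlapping groups.

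All 13 large subunit factors rose as well (median 0.570). Ddx21, a nucleolar RNA helicase, had the largest change of them (log2 fold change 0.87). Bop1, Pes1 and Wdr12 form the PeBoW complex, which acts in the maturation of the large subunit RNAs, and its members rose by 0.65, 0.25 and 0.57. Wdr12 was at 68.3, 68.9, 66.8 and 82.9 CPM with PDGF-BB, all above the control libraries at 49.1, 45.4, 49.0 and 49.7. Pes1 and Noc3l, a factor of pre-60S transport, had the smallest changes among the large subunit factors that passed the test (0.25 for both, edgeR adjusted p = 0.0084 and 0.00279).

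Of the RNA polymerase I class 3 of 4 members rose, and of the nucleolar chaperones and scaffolds 3 of 4 rose and 1 fell. Polr1a, the catalytic subunit, rose by a log2 fold change of 0.46, Polr1b, the second largest subunit, by 0.47, and Mybbp1a, a nucleolar regulator of rDNA transcription, by 0.45. Ubtf, the upstream binding factor that marks active rDNA, did not pass the test (229 against 214 CPM, log2 fold change 0.10, 95% confidence interval -0.00735 to 0.21, edgeR adjusted p = 0.148). Among the latter, Ncl (nucleolin), Nolc1 and Tcof1 (treacle) rose by 0.59, 0.84 and 0.53. Npm1, nucleophosmin, went the other way. It was at 1802, 1791, 1744 and 2093 CPM in the controls and at 1297, 1401, 1471 and 1768 CPM with PDGF-BB. The highest treated library, of batch P19, overlapped the lowest control (1484 ± 202 against 1857 ± 159 CPM, log2 fold change -0.32, SE 0.093, edgeR adjusted p = 0.00794). Within each of the 4 batches Npm1 was lower with PDGF-BB.

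**Figure D1:**
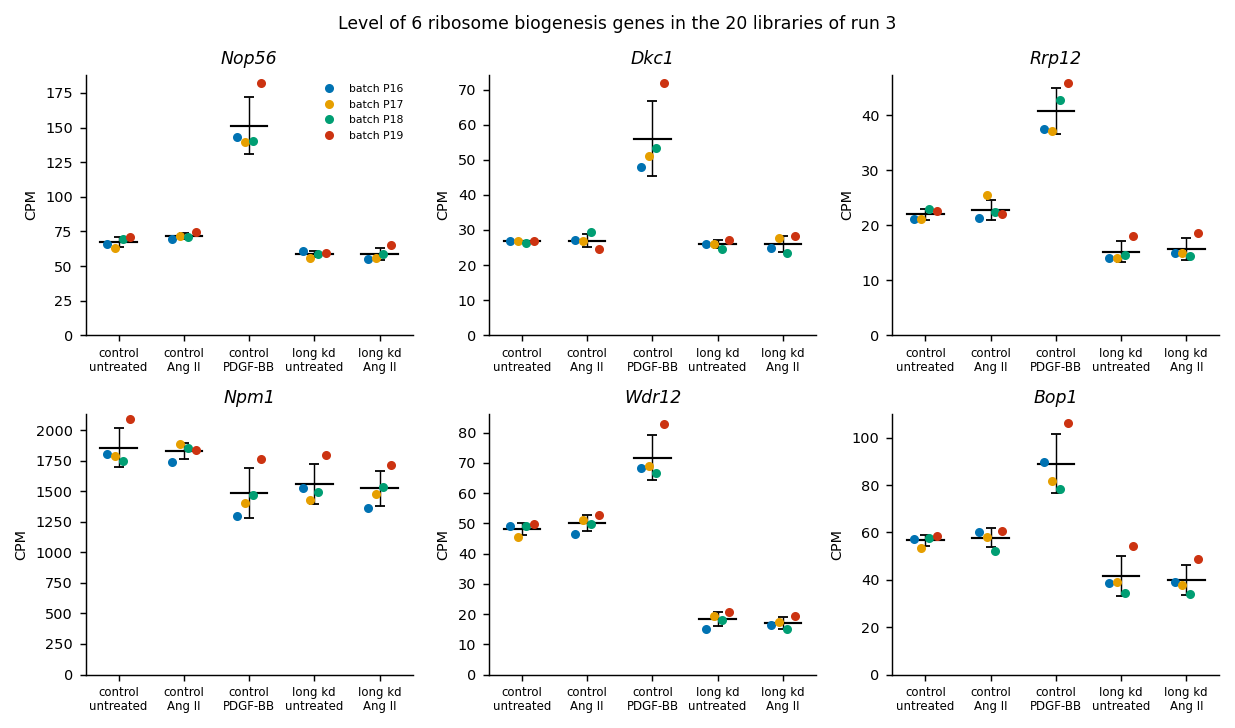
CPM of Nop56, Dkc1, Rrp12, Npm1, Wdr12 and Bop1 in each library of the 5 run 3 groups (points, coloured by batch), with the group mean and SD (bars). PDGF-BB libraries sit above the controls for 5 of the 6 genes and below most controls for Npm1, and Wdr12 is at 14.9 to 20.8 CPM in all long knockdown libraries.

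The rise was seen in each batch. Within batches P16, P17, P18 and P19 the median log2 ratio of the members was 0.483, 0.477, 0.537 and 0.762, and 37, 37, 36 and 37 of the 38 genes were higher with PDGF-BB. Proliferation moved with it: all 14 proliferation markers rose (median log2 fold change 3.02), their summed level was 2970 to 3367 CPM in the PDGF-BB libraries against 405 to 622 in the controls, and Mki67 rose by 3.77. Acta2 fell by 0.94 on the log2 scale, and Dcn, Pdgfra and the other fibroblast markers summed to 607 to 836 CPM against 1504 to 1733. The epithelial markers summed to 156 to 199 CPM against 97.7 to 129, and the endothelial markers to 0.356 to 1.05 CPM against 1.25 to 2.76. Of 11 tested genes on the list for RNA quality and rRNA-like loci 1 rose and 2 fell, with mt-Rnr2 at 0.36 and mt-Co3 at -0.43, and the list summed to 18300 to 29020 CPM against 26490 to 29020. The part of proliferation, cell mix or RNA quality in the members' change was not tested.

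Other genes of the same pathway were taken from lists fixed with earlier results of these data known. Of 47 further small subunit factors 30 rose and 1 fell (median log2 fold change 0.298). Bysl, a factor of late small subunit maturation, rose most (1.16) and Ddx52, an RNA helicase, fell by 0.25. Of 51 further large subunit factors 35 rose and 2 fell (median 0.348), with Lyar at 1.02 and Nsa2 at -0.52. Of 10 further polymerase I factors 2 rose, Polr1e by 0.48 among them, and the median was -0.0284. With the batch as a block 4 of the 10 rose, where 28.3% of all genes rose in that fit.

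Genes for the proteins of the finished ribosome fell more often than they rose. Of 79 cytosolic ribosomal protein genes 3 rose and 40 fell (median log2 fold change -0.186), from 0.45 for Rpsa to -0.64 for Rps27. Their summed level was 43270 to 48000 CPM with PDGF-BB and 49040 to 53440 in the controls. Of 16 host genes of snoRNAs none rose and 5 fell, Epb41l4aos by 0.94. Myc itself was at 120 ± 12.2 CPM against 77.2 ± 6.72 (log2 fold change 0.64, edgeR adjusted p = 0.00255, n = 4). Of the 11 genes of the MYC network 3 rose and 4 fell: Mxd3 rose by 4.02 and Mxd1 fell by 0.37. Ribosomal protein genes have many processed pseudogenes, with which reads can be shared.

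**Figure D2:**
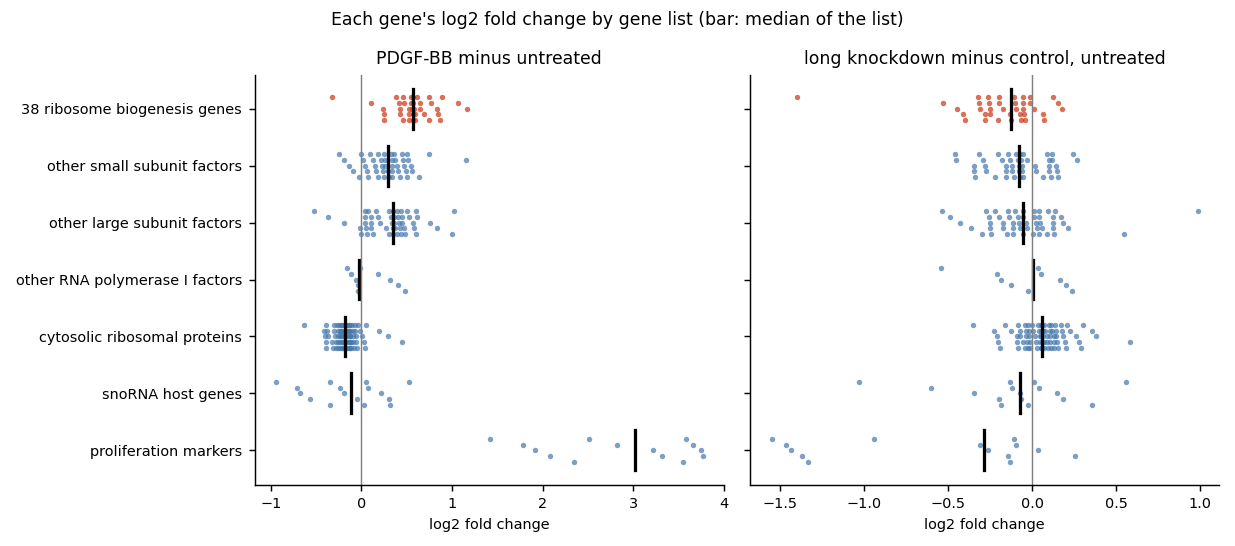
Log2 fold change of every gene (points) of the 38 members, the other pathway lists, the cytosolic ribosomal proteins, the snoRNA host genes and the proliferation markers, with PDGF-BB and in the untreated long knockdown; the bar is the median of a list. With PDGF-BB the members' median is 0.567 and that of the ribosomal proteins -0.186.

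Some members carry snoRNA genes inside their own span (7 of 38, 18.4%, against 372 of 21896 protein-coding genes, 1.7%, in RefSeq). They are Nop56, Nop58, Ncl, Dkc1, Wdr43, Gnl3 and Tsr1. Their PDGF-BB log2 fold changes ran from 0.57 to 1.17 with a median of 0.772, and the other 31 members ran from -0.32 to 0.892 with a median of 0.542. Whether reads of the snoRNAs entered these counts was not tested.

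A smaller set was lower in the long CASC15 knockdown. No rescue of the long transcript is among the groups, and effects of the oligonucleotide apart from CASC15 were not tested. In untreated cells 9 of the 38 genes fell and none rose, where 12.8% of all genes tested fell and 12.3% rose. The median log2 fold change of the members was -0.127, against 0.0155 for all genes. Levels lay below all controls for 10 members, a pattern held by 12.2% of all genes. With the batch as a block 17 members fell and 2 rose (Polr1a and Tcof1), beside 20.6% and 20.0% of all genes. Without the P19 libraries 18 fell, where 21.3% of all genes fell. The members' mean level was higher in the P19 knockdown library than in the other three.

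The large subunit factor Wdr12 fell most. It was at 49.1, 45.4, 49.0 and 49.7 CPM in the controls and at 15.2, 19.4, 17.99 and 20.8 CPM in the knockdown. The highest knockdown library was below every control (18.3 ± 2.36 against 48.3 ± 1.97 CPM, SD, n = 4, log2 fold change -1.40, SE 0.0953, edgeR adjusted p = 3.23e-09). Carf, whose span overlaps that of Wdr12, was at 15.5 CPM in both groups (log2 fold change 0.00). The other PeBoW genes moved less. Bop1 was at 57.2, 53.3, 57.7 and 58.4 CPM in the controls and at 38.6, 39.0, 34.6 and 54.1 CPM in the knockdown, where the P19 library overlapped the controls (log2 fold change -0.45, SE 0.125, edgeR adjusted p = 0.0118). Pes1 did not pass the test (-0.12, edgeR adjusted p = 0.225) without the block, and did with it (0.0398). Gnl3, nucleostemin, fell by 0.28 on the log2 scale and Ftsj3, an rRNA methyltransferase, fell by 0.26.

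Among the 10 small subunit factors 4 fell. Rrp12 was at 21.1, 21.1, 23.0 and 22.7 CPM in the controls and at 14.1, 14.1, 14.6 and 18.04 CPM in the knockdown, without overlap (log2 fold change -0.53, SE 0.102, edgeR adjusted p = 0.000655). Tsr1 went from 84.9, 79.9, 84.4 and 85.2 CPM to 60.0, 62.3, 58.6 and 70.7 CPM (log2 fold change -0.41). Heatr1 fell by 0.32 and Utp20, a scaffold of the early processome, by 0.25 (edgeR adjusted p = 0.0467). The call of Utp20 was lost in 7 of 15 alternatives, each leaving out 1 library, with an adjusted p of up to 0.165. Of the polymerase I class Polr1b fell, from 30.2 to 37.0 CPM in the controls to 24.8 to 27.7 CPM in the knockdown (log2 fold change -0.40, edgeR adjusted p = 0.0033). Polr1a was above all controls in every knockdown library but did not pass the test (log2 fold change 0.12, edgeR adjusted p = 0.0733). No member of the snoRNP classes or of the chaperones passed edgeR's test in the fit without the block. Npm1, Ncl, Tcof1, Nop56, Nop58, Nhp2 and Nop10 each passed in some other fit without the block, DESeq2's for Npm1 among them. Of these, Tcof1 and Nop10 were higher in the knockdown (87.96 against 77.71 and 28.74 against 25.77 CPM). With the block Nop56 (edgeR adjusted p = 0.00904), Nop58 (0.00143), Nhp2 (0.00216), Ncl (0.00248) and Npm1 (0.000588) fell and Tcof1 rose (0.031).

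Under angiotensin II the same comparison gave 14 members lower and 1 higher, where 13.3% of all genes fell and 13.4% rose. The median was -0.202, against 0.0144 for all genes, and 13 members lay below all controls (12.4% of all genes). All 9 genes that fell in untreated cells were among the 14, and the other five were Nop56, Nop58, Npm1, Wdr75 and Bms1. With the block 21 fell and 3 rose, beside 20.9% and 20.4% of all genes, and without the P19 libraries 21 fell, again with 20.9% of all genes. These 8 libraries are separate from the untreated ones, within the same run.

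Wdr12 was again lowest relative to its control. It was at 46.6, 51.1, 49.9 and 52.8 CPM in the angiotensin II controls and at 16.3, 17.3, 14.9 and 19.5 CPM in the knockdown (log2 fold change -1.56, SE 0.0961, edgeR adjusted p = 1.15e-09). Bop1 was at 60.3, 58.0, 52.3 and 60.7 CPM in these controls and at 39.0, 37.9, 33.8 and 48.8 CPM in the knockdown, here without overlap (-0.54, edgeR adjusted p = 0.00342). Rrp12 fell by 0.54 on the log2 scale (edgeR adjusted p = 0.000619). Nop58 and Nop56, the box C/D proteins, fell by 0.38 and 0.29, and Npm1 fell by 0.27. The smallest falls were those of Ftsj3 (-0.24) and Bms1, a GTPase of small subunit assembly (-0.19, edgeR adjusted p = 0.0259). The gene that rose was Polr1a, at 89.6, 91.1, 86.0 and 92.2 CPM in the controls and 102, 104, 93.7 and 98.9 CPM in the knockdown (log2 fold change 0.15, edgeR adjusted p = 0.0274).

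**Figure D3:**
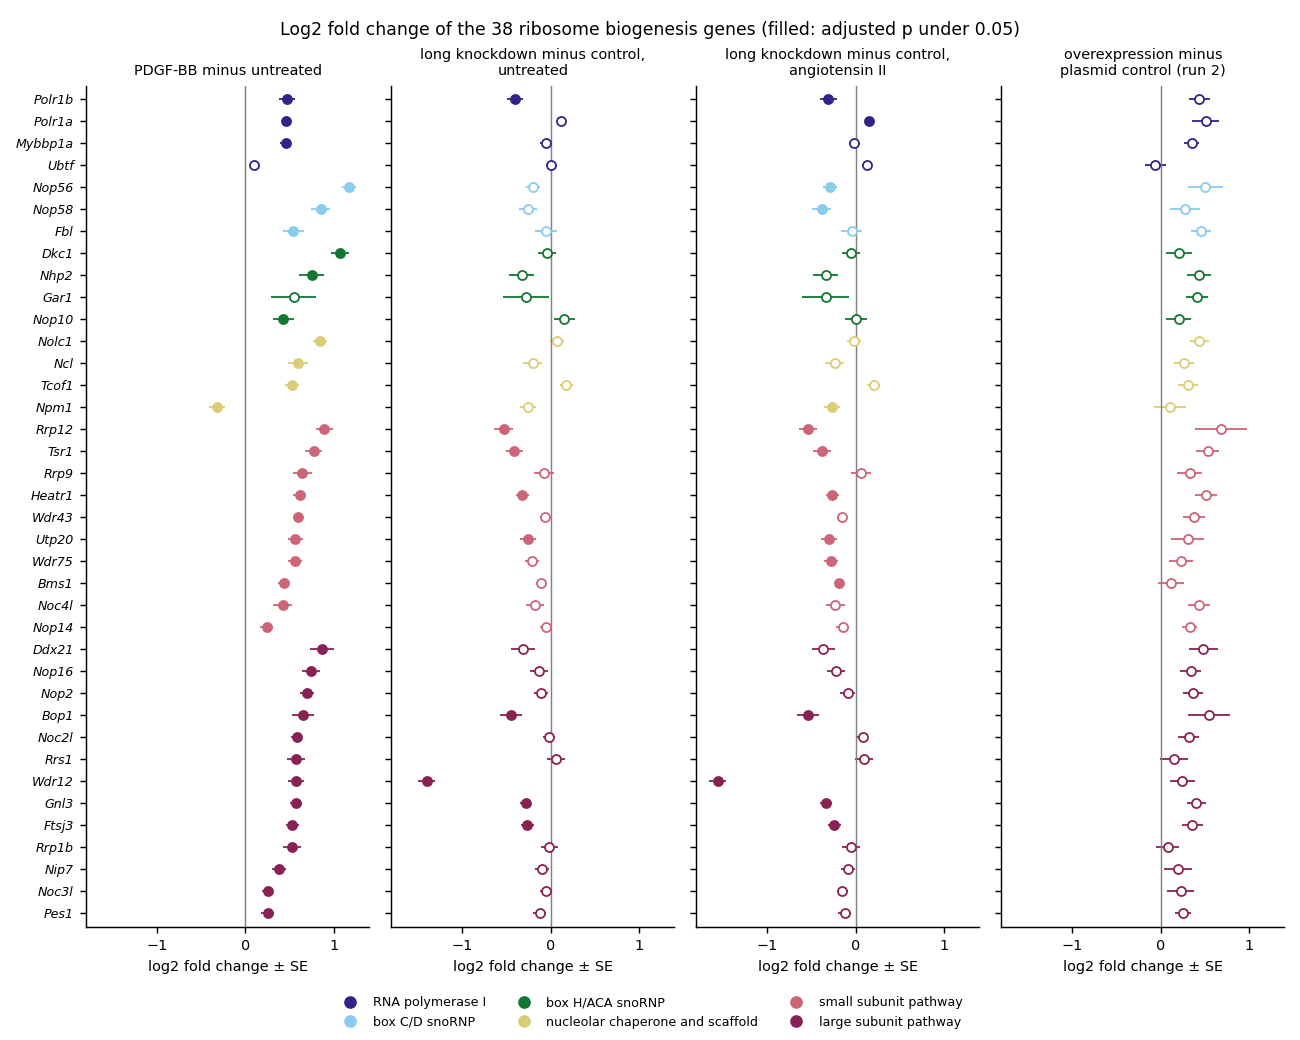
Log2 fold change of the 38 genes (points, with SE bars), grouped by role, for PDGF-BB, the long knockdown without and with angiotensin II, and CASC15 overexpression; filled points have an adjusted p under 0.05 and the vertical line at 0 marks no change. Wdr12 lies apart at -1.40 and -1.56 in the knockdown columns, and no point is filled in the overexpression column.

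Within batches the untreated medians were -0.102, -0.2, -0.195 and -0.112 for P16 to P19, and those under angiotensin II -0.158, -0.204, -0.262 and -0.128. Myc moved with the members in the knockdown, at 50.0 ± 13.5 CPM against 77.2 ± 6.72 untreated (log2 fold change -0.63, edgeR adjusted p = 0.00609) and lower by a log2 fold change of -0.78 under angiotensin II. Of 14 proliferation markers 2 fell and 1 rose in untreated cells (median -0.285, Rrm2 -1.37, Mcm7 0.26), and with the block 7 fell. Their summed level was 336 to 538 CPM against 405 to 622. Under angiotensin II 2 fell and 1 rose, 10 falling with the block. Epithelial markers, nearly all of it Cdh1, summed to 36.6 to 69.9 CPM in the untreated knockdown and to 97.7 to 129 CPM in its controls, with Epcam and Krt5 at 0 in most libraries. Under angiotensin II they summed to 35.4 to 64.4 CPM in the knockdown and 103 to 128 CPM in its controls. Endothelial markers there summed to 2.29 to 4.21 against 0.925 to 2.28 CPM, without overlap, with Cdh5 at 0 in 28 of all 30 libraries. The part of these in the members' change was not tested.

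In the untreated knockdown the called shares of the wider pathway are to be read against the 12.8% of all genes that fell and the 12.3% that rose, and shares near these are no result about a list. Of the 47 further small subunit factors 6 fell and 1 rose (Dhx37 -0.46, Ddx52 0.16, median -0.0767), and of the 51 further large subunit factors 10 fell and 3 rose (Rpf2 -0.53, Urb1 0.99, median -0.056). Of the 10 polymerase I factors Polr1e fell by 0.54 and Baz2a rose by 0.20. Of the 79 ribosomal proteins 9 rose and 4 fell (median 0.0608), with Rpsa at 0.59 and Rpl11 at -0.23. Of the 16 snoRNA host genes 2 rose and 2 fell.

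Since 35 of the 38 members rose with PDGF-BB, nearly any subset of them lies among those 35, as did all 9 genes lower in the untreated knockdown and 13 of the 14 lower under angiotensin II. The untreated knockdown and PDGF-BB were compared with the same 4 control libraries, so their values are set side by side and not tested against each other. Rrp12 was at 0.89 with PDGF-BB and -0.53 in the knockdown, Tsr1 at 0.77 and -0.41, Wdr12 at 0.57 and -1.40, and Bop1 at 0.65 and -0.45. Dkc1, with 1.07 under PDGF-BB, was at -0.04 in the knockdown. Nolc1, with 0.84, was at 0.07.

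Angiotensin II itself changed no member past the threshold. In control cells the log2 fold changes ran from -0.08 to 0.09 with a median of 0.0253. No gene of the 15103 tested passed (0% called), 156 had an unadjusted p under 0.05, none of them a member, and DESeq2 called 1 gene and 0 members. The widest 95% bound over the members was 0.558 in size, for Gar1. In the long knockdown the values ran from -0.11 to 0.15 (0% called). The interaction of knockdown and angiotensin II called 0 genes (0%). Over the members it ran from -0.16, for Wdr12 (95% confidence interval -0.422 to 0.102), to 0.13. The 5 genes lower under angiotensin II and not called in untreated cells are therefore not shown to differ between those conditions.

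Overexpression of total CASC15 in run 2 placed 37 of the 38 genes above the plasmid control, and none passed the test, where 1.65% of all 15350 genes did. The median log2 fold change was 0.335, against 0.000262 for all genes, and 25 members had an unadjusted p under 0.05, as did 15.0% of all genes. The smallest adjusted p was 0.0838, for Tsr1. DESeq2 called 9 members higher, and 2.79% of all genes. With the batch as a block 25 members rose, where 9.40% of all genes rose. By role these were 3 of 4 in the polymerase I class, 2 of 3 in box C/D, 2 of 4 in H/ACA, 2 of 4 among the chaperones, 8 of 10 small subunit and 8 of 13 large subunit factors.

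Tsr1 was at 63.4, 57.0 and 77.3 CPM in the plasmid controls of P17, P18 and P19 and at 89.6, 92.2 and 105 CPM with overexpression, without overlap (log2 fold change 0.53, SE 0.129, edgeR adjusted p = 0.00141 with the block). Rrp12 was at 14.2, 28.3 and 31.7 CPM in the controls and at 30.7, 39.2 and 49.3 CPM with overexpression. The overlap of these groups lies across batches, and within each batch overexpression was higher (log2 fold change 0.68, SE 0.299, edgeR adjusted p = 0.325, and 0.00297 with the block). Bop1 showed the same arrangement, with 42.6, 58.3 and 85.3 CPM against 76.9, 81.5 and 114 CPM (0.55, edgeR adjusted p = 0.00138 with the block). Polr1a was at 87.1, 106.5 and 88.4 CPM against 116, 161 and 124 CPM (0.51, edgeR adjusted p = 0.000783 with the block). Nop56 was at 42.7, 44.2 and 65.9 CPM against 61.2, 64.7 and 91.5 CPM (0.51, edgeR adjusted p = 0.000833 with the block). Ubtf was the member on the other side of 0 (-0.06). These genes are named here after their values were seen.

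**Figure D4:**
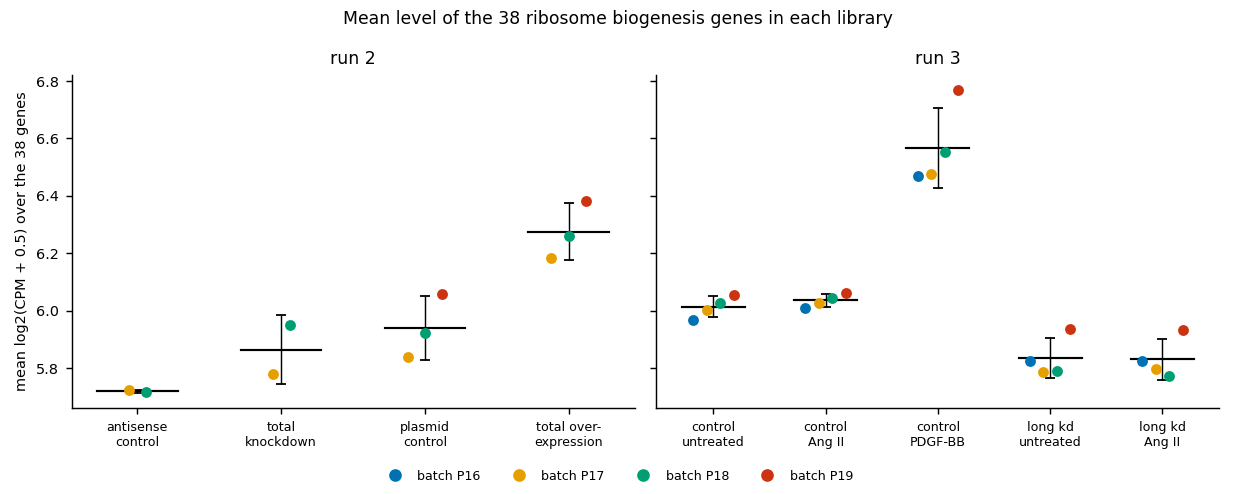
Mean over the 38 genes of log2(CPM + 0.5) in each library (points, coloured by batch) of runs 2 and 3, with group mean and SD (bars). In run 3 the PDGF-BB libraries lie at 6.47 to 6.77 and the untreated long knockdown at 5.79 to 5.93, below the controls at 5.97 to 6.05; in run 2 the overexpression libraries lie at 6.18 to 6.38.

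Within batches P17, P18 and P19 the overexpression medians were 0.349, 0.348 and 0.349, with 35, 36 and 36 of 38 genes higher. Other lists moved in the blocked fit as well: 16 of 47 further small subunit factors, 17 of 51 large subunit factors and 17 of 79 ribosomal proteins rose. All 79 of the latter had a positive log2 fold change. The ribosomal proteins summed to 57010, 38770 and 52900 CPM in the plasmid controls of P17, P18 and P19. With overexpression they summed to 55950 to 65240 CPM, which overlapped the controls. Myc was at 123 ± 15.6 CPM against 66.4 ± 20.1 (SD, n = 3, log2 fold change 0.89, edgeR adjusted p = 0.132, and 0.00167 with the block), and 11 of 14 proliferation markers rose in the blocked fit. Epithelial markers, mostly Cdh1, summed to 66.3 to 150 CPM with overexpression and to 44.5 to 64.2 CPM in its control. Their part in the members' values was not tested. Of the 9 members lower in the untreated long knockdown, 8 were among the 25 higher with overexpression in the blocked fit, 8 of 25 of that list, and Wdr12 was the exception (0.25, edgeR adjusted p = 0.0562 with the block). Of the 14 lower under angiotensin II, 9 were among those 25, and Bms1, Nop58, Npm1, Wdr12 and Wdr75 were not. The second list holds 25 of all 38 members, so overlaps with it are to be read beside that size, and neither overlap was tested. The runs share no libraries.

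The libraries labelled total knockdown did not show the reverse. Against the antisense control 0 members passed the test, where 2.07% of all genes did, 31 of 38 log2 fold changes were positive (median 0.128), and 3 members had an unadjusted p under 0.05, as did 12.9% of all genes. Gar1 had the largest (16.2 and 18.1 CPM against 11.6 and 11.1, log2 fold change 0.60, edgeR adjusted p = 0.0906). Within batches P17 and P18 the members' median log2 ratios were 0.0291 and 0.208, with 24 and 30 of 38 genes higher. With the block 3 members rose, Gar1, Utp20 and Nop58, where 8.76% of all genes rose, and DESeq2 called 1 higher, with 2.91% of all genes. Markers of smooth muscle and of other cell types moved with this comparison without overlap. The 6 leukocyte and macrophage markers summed to 17.4 to 21.2 CPM in the total knockdown against 0.668 to 0.84 CPM in its control, the 4 epithelial markers to 72.4 to 95.4 against 44.2 to 45.1, the 6 endothelial markers to 6.02 to 10.1 against 2.81 to 3.9, and the 14 proliferation markers to 401 to 544 against 292 to 299. The leukocyte sum was mostly Cd68 (up to 15.9 CPM) and Csf1r (up to 4.52 CPM), with Ptprc at most 2 reads and Adgre1 at most 1. Vwf held up to 6.14 CPM of the endothelial sum. The sum of the 8 smooth muscle markers was higher too, at 195.5 to 214.1 against 175 to 195.4 CPM. The 5 fibroblast markers went the other way, at 733 to 778 against 836 to 967 CPM. The part of all these markers in the members' values was not tested. With n = 2 a group, precision is low in this comparison. The plasmid control and the antisense control, neither with altered CASC15, also differed: 32 of 38 members were higher with the plasmid (median 0.22), none passed the test, where 1.18% of all genes did, and 9 had an unadjusted p under 0.05, as did 9.41% of all genes. The plasmid control holds a P19 library and the antisense control none, and without batch P19 the median was 0.156. Proliferation markers summed to 362 to 950 CPM with the plasmid and to 292 to 299 CPM with the oligonucleotide, and their part was not tested.

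The levels of the members as a whole put the groups of run 3 in the order PDGF-BB (mean log2 level 6.57 ± 0.141, SD, n = 4), angiotensin II control (6.04 ± 0.0231), untreated control (6.01 ± 0.0366), untreated long knockdown (5.83 ± 0.0693) and long knockdown with angiotensin II (5.83 ± 0.0709). The 2 control groups, and the 2 knockdown groups, that are neighbours in that order differ by less than the larger SD of the pair. In run 2 the order was overexpression (6.28 ± 0.0993, n = 3), plasmid control (5.94 ± 0.111, n = 3), total knockdown (5.86 ± 0.121, n = 2) and antisense control (5.72 ± 0.00495, n = 2), where the plasmid control and the total knockdown lie within their spread. Runs are not compared with each other.

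Counting limits of 2 kinds touch some members. Values with any fractional part as deposited (no tolerance), which mark reads shared out by RSEM between similar genes, were found for 12 of the 38: for Npm1 and Fbl in all 30 libraries, for Nop56 in 26, for Nop2 and Tsr1 in all 20 libraries of run 3, for Polr1b in 19 and for Rrp12 in 14 of them, and for Noc2l, Ncl, Polr1a, Heatr1 and Pes1 in 2 to 9. For these the split among similar copies is uncertain. The spans of 10 members, Wdr12, Bop1, Nop56, Dkc1 and Tsr1 among them, are overlapped by another coding gene in RefSeq, and the strand setting of the counting is not given in the sources used here.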

How the data were processed

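The 30 RNA-seq libraries were paired reads of 75 bp. The deposited table holds expected counts, the estimated reads per gene from RSEM, not scaled to depth. STAR 2.7.11b, RSEM 1.3.1 and the builds GRCm39 and mm10 are named in the submitters' processing notes, with no role stated, and strand settings are not given in the sources used here. Symbols were matched to 51486 of 78334 identifiers, which held 98.7% of counts, and all 30 columns matched a sample.

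Expected counts were rounded and tested with edgeR 4.0.16 (quasi-likelihood, robust, TMM scaling, filterByExpr with a minimum count of 10 and total of 15) in R 4.3.3. Runs 2 and 3 were fitted separately, each with all its groups, leaving 15350 and 15103 genes. Depth was 18007199 to 21881959 counts in run 2 and 15771490 to 30362047 in run 3. P-values were adjusted by Benjamini-Hochberg over all genes tested, with a threshold of 0.05. CPM used the tested genes and TMM factors. Confidence intervals (95%) are the log2 fold change and its SE times the normal quantile. The script was tested on simulated data.

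The labels name a batch that runs with the replicate number, so the numbers pair the libraries. The mean correlation of deviations from the group mean, over all genes tested, was 0.295 for the same number and -0.155 otherwise in run 2, and 0.266 and -0.0773 in run 3. The lowest same-number values were 0.0302 and 0.0466. Over the members alone the mean in run 2 was 0.514 for the same number (lowest 0.35) and -0.279 otherwise. In run 3 the members' mean was 0.234 for the same number (lowest -0.271) and -0.0696 otherwise. The main fit leaves this pairing out, so differences between batches stay in its error. The fit with the batch as a replicate block is an alternative, beside DESeq2 1.42.0, other filters, other scaling and leaving out each library. Leaving out batch P19 was chosen after seeing the data.

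The members and gene lists were chosen with earlier results of these data known. Named first are the 3 largest and 3 smallest changes among called members, members called against the majority, members not called where at least 30 were, the extreme called genes of other lists with a mean of at least 5 CPM, and Myc, Mki67 and Acta2. Other members are named by their role, after their values were seen.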

Additional observations from a re-analysis of the deposited data

Results flagged for a closer look

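In groups of 4 libraries, 28 of 190 combinations of a member and a group held a library far from the rest by Dixon's outlier test. The threshold of that test has a nominal rate of about 1 in 20 for independent groups. Members share their libraries, so these combinations are not independent. Of these, 6 lay in the PDGF-BB group, each with the P19 library (replicate 4) highest. There Nop56 was at 182 CPM (139 to 143 in the others), Ddx21 at 382 (260 to 274), Tsr1 at 174 (130 to 137), Wdr12 at 82.9 (66.7 to 68.9), Wdr75 at 82.2 (63.6 to 65.8) and Nop16 at 68.5 (53.2 to 53.8).

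In the untreated long knockdown the P19 library was highest for Pes1 (148 CPM), Rrp12 (18 CPM) and Ddx21 (161 CPM). Other libraries stood apart for Rrp1b (31.3 CPM, replicate 2), Tcof1 (93.4 CPM) and Bms1 (93.4 CPM, both replicate 3), all highest, and Utp20 (82.3 CPM, replicate 1, lowest). In the long knockdown with angiotensin II the P19 library was highest for Fbl (65.1 CPM), Pes1 (158 CPM), Rrp12 (18.7 CPM) and Nop14 (67.6 CPM) and lowest for Ubtf (207 CPM). Wdr43 was highest in replicate 3 (102 CPM) and Gnl3 lowest in replicate 1 (64.5 CPM).

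In the untreated controls the P19 library was highest for Npm1 (2090 CPM), Nop10 (31.2 CPM) and Ddx21 (188 CPM). Wdr12 (45.4 CPM) and Tsr1 (79.9 CPM) were lowest in replicate 2 and Noc4l (16.2 CPM) in replicate 3. In the angiotensin II controls Nop14 was lowest in replicate 1 (65.3 CPM) and Noc4l highest in replicate 4 (21.6 CPM).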

How the results depend on the processing

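None of the 60 fold changes called for a member changed sign under any alternative, while 103 of the 282 that were not called did under at least 1. The medians changed sign for angiotensin II in the long knockdown and for the interaction, which were near 0. Of the 36 members called with PDGF-BB, 33 were called in all 15 alternatives (Nop10, Nop14 and Pes1 were lost in some). Of the 9 called in the untreated long knockdown 7 were kept (Ftsj3 and Utp20 were lost in some), and of the 15 called under angiotensin II 9 (Bms1, Ftsj3, Npm1, Polr1a, Polr1b and Utp20 were lost in some). With the replicate block 3 members were called for total knockdown, 25 for overexpression and 1 for the plasmid against the antisense control. The untreated long knockdown then had 19 and that under angiotensin II 24, and no other count changed by over 1.5 times. Calls over all genes went, in that order, from 317 to 2209, 253 to 2721, 181 to 459, 3783 to 6126 and 4033 to 6238. DESeq2 called 1, 9 and 1 in the 3 comparisons of run 2, where edgeR called 0. Over all genes DESeq2 called 719, 807 and 347 there, and edgeR 317, 253 and 181. Without a filter on low counts 7 were called for overexpression and 3 for the plasmid control, where the calls over all genes went from 253 to 1363 and from 181 to 1106. Without batch P19 the counts were 1 for total knockdown, 6 for overexpression, 19 for the untreated long knockdown and 24 under angiotensin II, while the calls over all genes went from 317 to 1041, 253 to 844, 3783 to 6062 and 4033 to 6049. The total knockdown and its control hold no P19 library, so no library of that comparison was left out. The cause of these changes was not tested.

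Leaving out each library in turn gave 33 to 37 called with PDGF-BB (median 0.465 to 0.594), 7 to 12 in the untreated long knockdown (-0.182 to -0.114), 12 to 22 under angiotensin II (-0.221 to -0.175), 0 to 7 for overexpression (0.282 to 0.388, with 7 when replicate 3 of the plasmid control was left out, where the calls over all genes went from 253 to 867), 0 for total knockdown (0.0534 to 0.234) and 0 for the plasmid control (0.163 to 0.287). For angiotensin II it gave 0 in control cells (0.00874 to 0.0532), 0 in the knockdown (-0.05 to 0.0316) and 0 for the interaction (-0.0618 to 0.032). The highest counts in both long knockdown comparisons came without replicate 4 of the knockdown group compared. Under angiotensin II the calls over all genes then went from 4033 to 4880. With 2 libraries a group, leaving out 1 leaves a lone library that is assumed to vary like the other groups. Few libraries limit the precision. Gar1, with the widest error of the list, had 94 to 429 counts in a library, and the cause of its spread was not tested.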
